A study of Homo sapiens with 6 samples.

Results

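DHRS2, DHRS3 and 6 further genes of retinoid metabolism and signalling (RDH10, RDH11, CRABP2, RARA, RARG and RXRA) were followed on 6 Illumina bead arrays of RNA from cultured breast cancer cells. These 8 genes were picked with measured values in view, because DHRS2 had the highest difference in MDA-MB-453 and DHRS3 was higher in both lines, so their differences between labelled knockdown and control arrays are given as a description, with no test. They are named by 12 of the 48107 probes on the array, and 7 of the 8 genes passed the detection filter among the 13022 genes tested. RARG did not pass it. MDA-MB-231, a mesenchymal-like line without hormone receptors, has 2 arrays labelled SETDB1 knockdown with the hairpin shRNA-1 and 2 arrays labelled shCtrl. MDA-MB-453, a luminal-like line, has 1 array labelled SETDB1 knockdown with shRNA-3 and 1 labelled shCtrl. Line and hairpin therefore changed together. All cells were grown in DMEM with serum and antibiotics, and the labels give neither the time after transduction nor whether clones or pools were used. Nothing in the labels ties the replicates to different cultures, so the p-values cover the array-to-array spread alone, and that spread may be purely technical.

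Retinol, the alcohol form of vitamin A, is oxidised to retinal by dehydrogenases such as RDH10 and then to retinoic acid by the ALDH1A enzymes, while DHRS3 and RDH11 reduce retinal back to retinol. CRABP2 carries retinoic acid to the nucleus, where heterodimers of a retinoic acid receptor (RARA, RARB, RARG) and a retinoid X receptor (RXRA, RXRB, RXRG) bind DNA, and CYP26 enzymes break retinoic acid down. DHRS3 and CRABP2 are themselves known targets of retinoic acid. DHRS2, also called HEP27, belongs to the same family of short-chain dehydrogenases as DHRS3, but it reduces dicarbonyls and is best known for stabilising p53 through MDM2, and a place for it in retinoid metabolism is less clear.

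The sequences upstream of the annotated starts of DHRS2, DHRS3 and CRABP2 are shown because DHRS2 and DHRS3 were the members with differences of 2-fold or more in MDA-MB-453 and CRABP2 was the member that differed most between the lines. They are the 250 bases before the start, 5′ to 3′ on the gene's strand, from RefSeq on GRCh38.p14, at chr14:23629865-23630114 (plus strand) for DHRS2, chr1:12618211-12618460 (minus strand, the first of 3 listed starts) for DHRS3 and chr1:156705785-156706034 (minus strand) for CRABP2. Capitals mark a match to TATAAA or to a retinoid receptor half-site.
DHRS2: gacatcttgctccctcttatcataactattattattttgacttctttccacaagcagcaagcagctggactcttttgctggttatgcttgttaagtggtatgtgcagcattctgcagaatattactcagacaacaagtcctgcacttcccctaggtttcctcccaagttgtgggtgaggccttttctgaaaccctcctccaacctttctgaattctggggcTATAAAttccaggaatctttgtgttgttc
DHRS3: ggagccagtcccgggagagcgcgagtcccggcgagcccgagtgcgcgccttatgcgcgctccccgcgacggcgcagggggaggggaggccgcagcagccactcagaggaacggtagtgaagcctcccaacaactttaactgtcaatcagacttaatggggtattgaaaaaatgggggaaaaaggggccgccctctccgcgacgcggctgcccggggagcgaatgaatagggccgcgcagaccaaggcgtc
CRABP2: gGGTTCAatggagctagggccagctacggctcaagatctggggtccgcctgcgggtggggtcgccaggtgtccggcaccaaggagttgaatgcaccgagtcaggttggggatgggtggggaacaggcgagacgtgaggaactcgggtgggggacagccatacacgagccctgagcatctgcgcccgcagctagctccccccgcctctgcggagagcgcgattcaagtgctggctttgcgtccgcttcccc
The window of DHRS2 had 0 CG dinucleotides, as did 6.06% of the 35116 listed windows of the same length, against 26 in DHRS3 and 18 in CRABP2 and a median of 11 over all windows. It held TATAAA beginning 29 bases before the start, a word present on either strand in 10.7% of windows and absent from the other 2 shown. The half-sites searched on both strands were AGGTCA with its variant AGTTCA, and GGGTCA with its variant GGTTCA. CRABP2 held 1, GGTTCA, while the windows shown for DHRS2 and DHRS3 held 0, and 33.8% of all windows hold at least 1. The other 2 listed DHRS3 starts held 1 each. No listed window of DHRS2, DHRS3, RDH11, CRABP2, RARA, RARG or RXRA held 2 half-sites in the same orientation 1, 2 or 5 bases apart, an arrangement found in 0.202% of windows, or the MYC-binding word CACGTG, found in 6.34%. RDH10 was not included in this search. These matches describe letters in a short window, and which start each probe reports was not analysed here.

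Values below are normalised log2 intensities, and a difference is the labelled knockdown minus the control. Between 19230 and 21238 probes were detected per array (detection p below 0.05), with median intensities of 47.9 to 60.4, the highest on the MDA-MB-453 array labelled knockdown. The single probe of SETDB1, the histone H3K9 methyltransferase targeted by the hairpins, read 7.40 and 7.42 on the MDA-MB-231 controls and 7.29 and 7.21 on the arrays labelled knockdown, which is -0.16 ± 0.16 (SE) between them and did not pass (limma adjusted p = 0.493). The MDA-MB-453 control read 8.98 for SETDB1 and the array labelled knockdown 8.73. After normalization SETDB1 thus read slightly lower with the label in each line, and without overlap in MDA-MB-231, where the replicate SDs were 0.011 and 0.052. The deposited intensities in MDA-MB-453 went the other way, at 449 on the control and 534 on the array labelled knockdown. The lower reading in that line therefore rests on the normalization, and its value under median scaling was not examined. The limma SE also draws on the spread of all genes. The arrays are called "labelled knockdown" because these small differences did not pass in MDA-MB-231 and were not tested in MDA-MB-453. The 6 fixed MDA-MB-231 markers (VIM, CAV1, AXL, CD44, MSN and ZEB1) were detected on all 4 MDA-MB-231 arrays, and CAV1, AXL, CD44 and ZEB1 on neither MDA-MB-453 array. Of 8 fixed MDA-MB-453 markers, 7 were tested, and their summed level was 9.81 and 9.88 on the MDA-MB-231 controls, 12.58 and 12.71 on those labelled knockdown, and 15.06 and 15.28 in MDA-MB-453. In MDA-MB-231, KRT19 rose by 4.48 with the label, SPDEF and AGR2 were detected with the knockdown label alone, FOXA1 was detected on the controls alone, and PIP stayed undetected throughout that line. The part of these marker shifts in the results below was not tested. Of the stromal and leukocyte markers, COL3A1, LUM and CD3E were not detected on any array. COL1A1 was detected on both MDA-MB-231 controls, 1 array labelled knockdown there and both MDA-MB-453 arrays, at up to 6.77. DCN was detected on both MDA-MB-231 controls and 1 array labelled knockdown, at up to 5.06. LYZ was detected on all 4 MDA-MB-231 arrays, at up to 5.27, and PTPRC on 1 MDA-MB-231 control.

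DHRS2 was near the detection limit on 5 arrays and strongly expressed on 1. Its brighter probe read 5.10 and 4.63 on the MDA-MB-231 controls, with only the first detected, and 6.15 and 5.69 on the pair labelled knockdown. In MDA-MB-453 the same probe read 5.58 on the control and 11.23 on the array labelled knockdown, where the deposited intensities were 67.5 and 2863. The MDA-MB-453 array labelled knockdown thus stood far above all others, and within MDA-MB-231 both arrays labelled knockdown lay above both controls.

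The differences of DHRS2 were 5.64 in MDA-MB-453 (49.99-fold, 1 array against 1) and 1.06 ± 0.23 (SE) in MDA-MB-231, ranks 1 and 1070 of 13022 genes. The dimmer DHRS2 probe gave the same direction with smaller sizes, 5.73 and 10.08 in MDA-MB-453 (a difference of 4.35, 20.4-fold) and a difference of 0.35 in MDA-MB-231, where its values were 4.53 and 5.09 against 5.14 and 5.18. The size in MDA-MB-231 therefore depended on the probe, and on the background correction, without which the brighter probe gave 0.65, and 1 of its 2 control values lies under the detection limit for each probe.

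The 3 genes that followed DHRS2 in MDA-MB-453 lay well below it. S100P, a calcium-binding protein not detected on the control, was at least 12.1-fold higher, the stress-induced cytokine GDF15 differed by 3.75 and the mammary secretoglobin SCGB2A2 by 3.45. S100P and GDF15 were not detected on the MDA-MB-231 controls either and were detected on both arrays labelled knockdown there. S100P was at least 30.2-fold higher on these and GDF15 at least 13.4-fold. SCGB2A2 was not detected on the 4 MDA-MB-231 arrays, at 4.32 to 4.44.

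DHRS3, the retinal reductase that returns retinal to retinol, had nearly the same levels and the same difference in both lines. It read 6.66 and 6.50 on the MDA-MB-231 controls and 6.52 on the MDA-MB-453 control. On the arrays labelled knockdown it read 8.41 and 8.26 in MDA-MB-231 and 8.39 in MDA-MB-453. The 3 arrays labelled knockdown lay above the 3 controls with no overlap, and all 6 readings were detected.

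The differences of DHRS3 were 1.75 ± 0.17 (SE) in MDA-MB-231, 3.37-fold, and 1.86 in MDA-MB-453, 3.64-fold, ranks 398 and 28. A gap of at most 0.16 separated replicates of either MDA-MB-231 group. Since this likeness was part of why DHRS3 was picked, it carries no test.

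**Figure D1:**
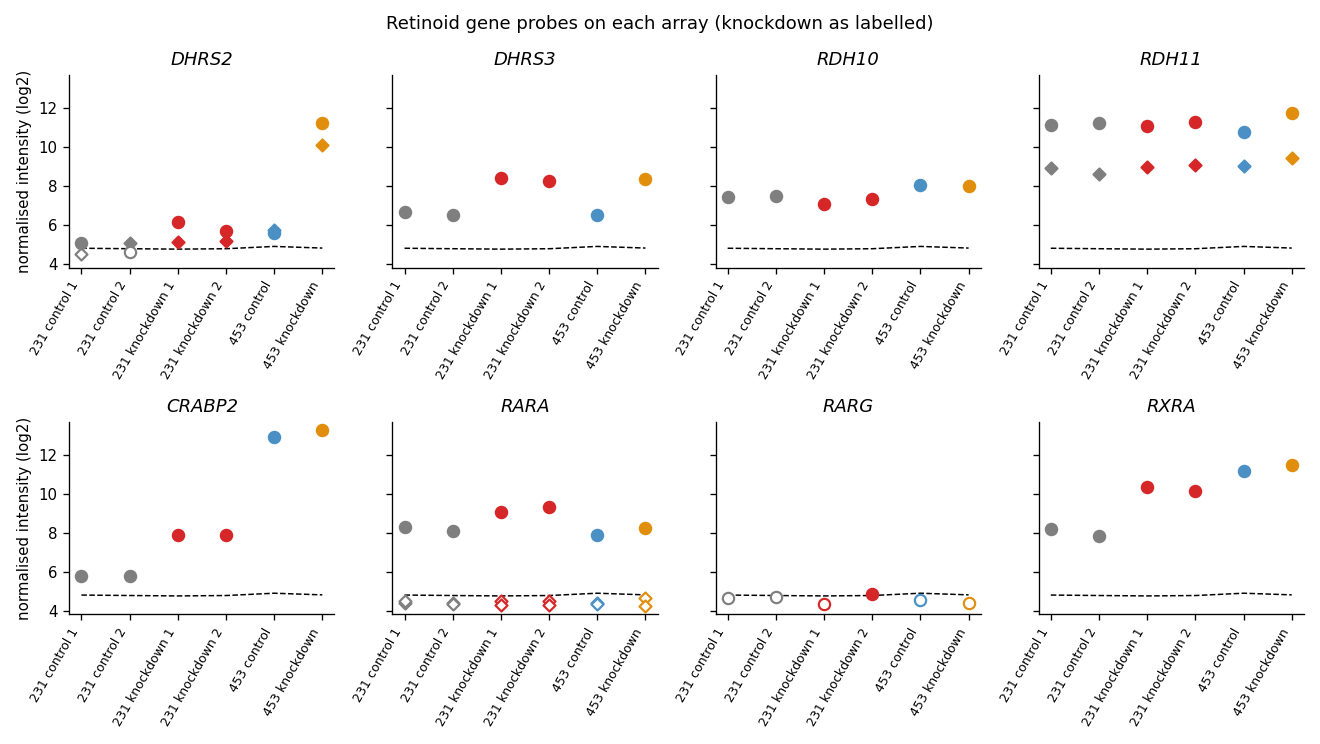
Normalised log2 intensity of every probe of the 8 genes on each of the 6 arrays. Circles are the probe tested (or, for RARG, the only probe), diamonds other probes of the gene, open symbols readings with a detection p of 0.05 or more, and the dashed line is the lowest detected value of each array. DHRS2 reaches 11.23 on the MDA-MB-453 array labelled knockdown, and DHRS3 lies between 6.50 and 6.66 on the controls and between 8.26 and 8.41 on the arrays labelled knockdown.

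Of the other retinol and retinal enzymes among the members, RDH10 differed little and RDH11 was higher in MDA-MB-453 alone. RDH10, which oxidises retinol in the first step to retinoic acid, read 7.45 and 7.47 on the MDA-MB-231 controls, 7.07 and 7.32 on those labelled knockdown, and 8.04 on the MDA-MB-453 control, with a difference of -0.04 there. Within MDA-MB-231 the label went with the lower readings, without overlap, and the difference was -0.26 ± 0.17 (SE). The 20 tested genes nearest to RDH10 along chromosome 8 had a median difference of -1.11 in MDA-MB-231, against -0.12 over the chromosome.

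RDH11, a retinal reductase also known from prostate epithelium, read 11.13 and 11.23 on the MDA-MB-231 controls and 11.07 and 11.28 on those labelled knockdown, so these groups overlapped. In MDA-MB-453 it read 10.78 and 11.73, a difference of 0.95 that is just under 2-fold and was 1.24 under median scaling. Its dimmer probe read 9.01 and 9.45 there, a difference of 0.44, and gave 0.26 in MDA-MB-231. The 2 probes thus differed in size in MDA-MB-453. In MDA-MB-231 the brighter probe gave -0.01 ± 0.17 (SE), which has no clear direction to set against the dimmer one.

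With the knockdown label CRABP2 and RXRA were higher in MDA-MB-231, and both were high on either MDA-MB-453 array. CRABP2, the carrier of retinoic acid to its receptors, read 5.81 and 5.77 on the MDA-MB-231 controls and 7.90 and 7.91 on those labelled knockdown. That is 2.12 ± 0.16 (SE) higher, 4.34-fold. In MDA-MB-453 it read 12.94 and 13.25, a difference of 0.32. The MDA-MB-231 groups did not overlap, and both stayed far under either MDA-MB-453 array.

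RXRA, the shared partner of the retinoic acid receptors and of several other nuclear receptors, read 8.18 and 7.82 on the MDA-MB-231 controls and 10.36 and 10.14 on those labelled knockdown. The difference was 2.26 ± 0.19 (SE), 4.78-fold, without overlap. In MDA-MB-453 it read 11.17 and 11.49, also a difference of 0.32. Of the MDA-MB-453 markers given above, SPDEF, AGR2 and KRT19 were much higher on the same MDA-MB-231 arrays, and ERBB2 and GATA3 slightly higher. FOXA1 went the other way, and PIP was not detected. The part of these markers in the differences of CRABP2 and RXRA was not tested.

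RARA, a receptor for retinoic acid, read 8.32 and 8.09 on the MDA-MB-231 controls and 9.07 and 9.35 on those labelled knockdown. They did not overlap and differed by 1.01 ± 0.18 (SE). In MDA-MB-453 it read 7.87 and 8.25, a difference of 0.38. The other 2 RARA probes were not detected on any array. RARG, the receptor best known from skin, was detected on 1 of 6 arrays and read between 4.37 and 4.86, so it has only a bound here and no difference is given.

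Among the 7 tested members in MDA-MB-231, both arrays labelled knockdown lay above both controls for DHRS2, DHRS3, CRABP2, RARA and RXRA. They lay below them for RDH10, and the readings of RDH11 overlapped. With 2 arrays against 2, exchangeable readings separate in one direction or the other with a probability of 0.333. The share of all genes without such overlap was not counted. By a different criterion, an adjusted p below 0.05, limma called 19.5% of all genes tested higher there, 19.7% lower and 39.2% either way. In MDA-MB-453, 2 of 7 (DHRS2 and DHRS3) were higher by 2-fold or more and 0 lower, where 1.51% of all genes were that much higher, 1.56% that much lower and 3.06% either way. That split depended on the scaling, with 196 genes higher and 203 lower under quantile normalization and 681 and 46 under median scaling, where RDH11 (1.24) also passed 2-fold. The members were picked on these contrasts, so nothing is read from these counts. The median difference of the members was 1.06 in MDA-MB-231 and 0.38 in MDA-MB-453, against -0.01 and 0.02 over all genes. Over the whole array, 1171 genes were called higher by 2-fold or more in MDA-MB-231 and 196 were 2-fold or more higher in MDA-MB-453. The lists shared 36 genes, which are 3.07% of the first and 18.4% of the second. The 3.07% stands beside the 1.51% of all genes that were 2-fold or more higher in MDA-MB-453. This overlap was not tested, and the second list depended on the scaling as given above. The MDA-MB-231 difference of DHRS2 fell under 2-fold without background correction (0.65), with an offset of 50 (0.59) and as the mean of its probes (0.70). It also did so without control replicate 2 (0.83) or knockdown replicate 1 (0.83).

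**Figure D2:**
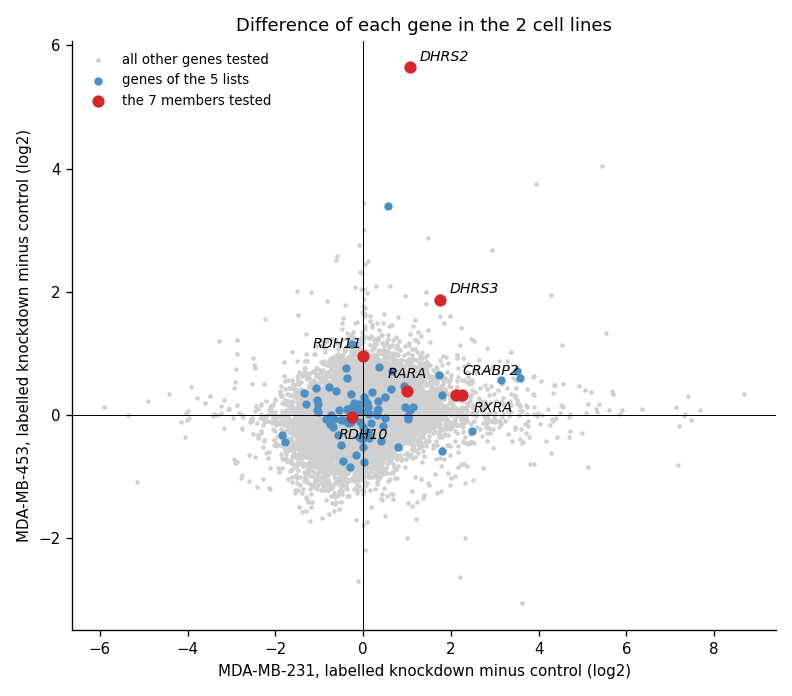
Log2 difference between labelled knockdown and control arrays of each of the 13022 genes tested, in MDA-MB-231 (horizontal, 2 arrays against 2) and in MDA-MB-453 (vertical, 1 against 1). Red points are the 7 tested members and blue points the genes of the 5 lists. DHRS2 stands alone at 5.64 on the vertical axis, DHRS3 lies at 1.75 and 1.86, and CRABP2 and RXRA lie to the right near the horizontal axis.

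In MDA-MB-453 the tested genes next to DHRS2 and DHRS3 had smaller differences, whereas in MDA-MB-231 a neighbour of each differed by more than the member itself. On chromosome 14 the 3 tested genes on either side of DHRS2 were THTPA, ZFHX2 and AP1G2, and DHRS4-AS1, DHRS4 and DHRS4L2. In MDA-MB-453 these 6 differed by -0.07, 0.10, 0.20, 0.78, 0.19 and 0.08, against 5.64 for DHRS2. DHRS4 and DHRS4L2 are close relatives of DHRS2 in sequence and near-identical to each other, so which of those 2 a probe reads is uncertain. Over the 20 nearest tested genes the differences in MDA-MB-453 ran from -0.34 to 1.12 with a median of 0.13. In MDA-MB-231 the vesicle adaptor AP1G2 rose by 1.31 (limma adjusted p = 0.00043) and ZFHX2 by 0.50 (adjusted p = 0.049), beside 1.06 for DHRS2. DHRS4L2 went the other way, at -0.54 (adjusted p = 0.033), and THTPA, DHRS4-AS1 and DHRS4 did not pass. The 20 nearest tested genes ran from -1.07 to 1.31 there, with a median of 0.12.

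On chromosome 1 the tested genes beside DHRS3 were TNFRSF1B, VPS13D and SNORA59A, and HNRNPCL1, PRAMEF7 and HNRNPCL3. In MDA-MB-453 they differed by 0.03, 0.93, -0.26, 0.36, -0.06 and -0.27, against 1.86 for DHRS3. In MDA-MB-231 the tumour necrosis factor receptor TNFRSF1B rose by 2.51 (limma adjusted p = 1.7e-05) and was 1 of the 20 nearest tested genes, whose median was 0.07 there and -0.27 in MDA-MB-453. The HNRNPCL and PRAMEF genes are families of near-identical copies, and which copy is read is uncertain.

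**Figure D3:**
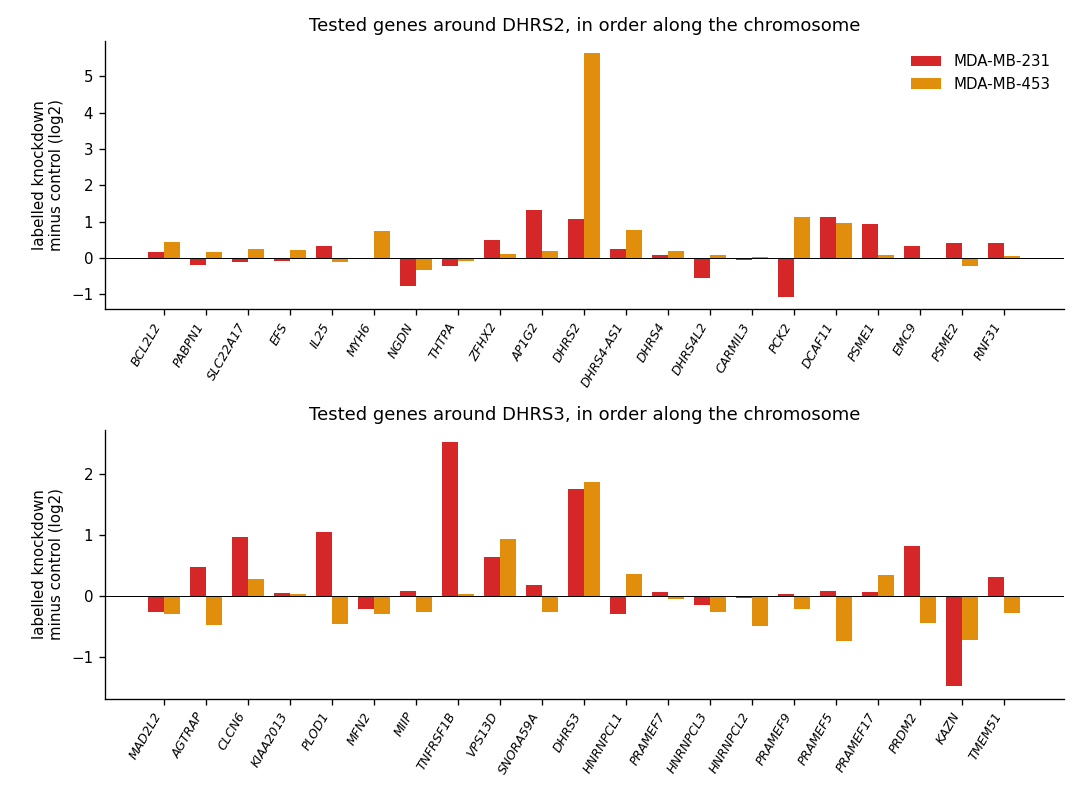
Log2 difference between labelled knockdown and control arrays of DHRS2 (top) and DHRS3 (bottom) and of the 10 tested genes on each side, in gene order, with 1 bar for MDA-MB-231 (red) and 1 for MDA-MB-453 (orange). The MDA-MB-453 bar of DHRS2, at 5.64, stands among neighbours between -0.34 and 1.12, and both bars of DHRS3 stand above neighbours except TNFRSF1B in MDA-MB-231.

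The comparison of the control arrays asks how the retinoid genes differ between the lines, and it was not used to pick them, although the same controls enter the contrasts that were. It sets 1 MDA-MB-453 array against 2 MDA-MB-231 arrays, and the single array is assumed to vary like the others. CRABP2 was higher in MDA-MB-453 by 7.15 ± 0.20 (SE), 142-fold, with a limma adjusted p of 8.5e-08. Its size depended on the background correction and was 6.55 without it and 6.46 with an offset of 50. RXRA was higher by 3.18 ± 0.24, 9.04-fold (adjusted p = 7.3e-06), and RDH10 by 0.58 ± 0.21 (adjusted p = 0.047). In each case the MDA-MB-453 control lay above both MDA-MB-231 controls. The RDH10 call is close to the threshold and was lost without either MDA-MB-231 control, with adjusted p-values of 0.141 and 0.134, and under median scaling (0.271).

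The other 4 tested members did not pass the test between the lines. DHRS3 differed by -0.06, with a 95% confidence interval of -0.54 to 0.42, which leaves differences beyond those bounds outside it. RARA differed by -0.33 (-0.84 to 0.19) and RDH11 by -0.40 (-0.88 to 0.08), and both passed, as lower in MDA-MB-453, under median scaling (adjusted p = 0.043 and 0.047). DHRS2 was higher by 0.72 (0.09 to 1.36; adjusted p = 0.056) and passed when its 2 probes were averaged (0.82, adjusted p = 0.0079). In all, 3 of 7 members were called higher in MDA-MB-453 and 0 lower, where 26.9% of all genes were called higher and 26% lower, so the share of members called either way is near the 52.9% of all genes. Over all genes 3509 were called higher and 3386 lower, against 2750 and 4039 under median scaling.

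**Figure D4:**
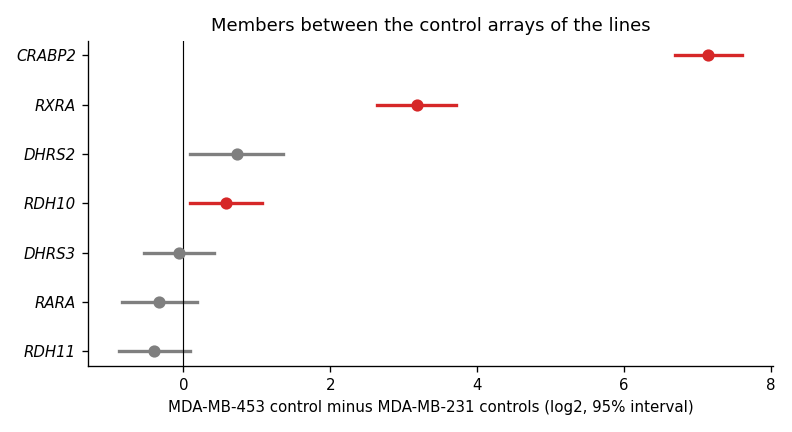
Log2 difference between the MDA-MB-453 control (1 array) and the MDA-MB-231 controls (2 arrays) for the 7 tested members, with 95% confidence intervals from limma. Red marks an adjusted p below 0.05. CRABP2 at 7.15 and RXRA at 3.18 lie far from 0, and the interval of DHRS3 spans it.

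Other genes of retinol and retinal metabolism were called in both directions in MDA-MB-231, as were genes at large. Of 31 listed, 16 were tested, 5 rose, 3 fell and 8 did not pass, beside 19.5% of all genes called higher and 19.7% lower, and the median was 0.11 against -0.01 over all genes. CYP1B1, a cytochrome P450 that oxidises retinol and retinal as well as oestrogens, rose by 3.58 ± 0.17 (SE; limma adjusted p = 2.3e-06), from 6.66 and 6.54 to 10.08 and 10.27. The retinal-reducing aldo-keto reductase AKR1C3 rose by 1.81 and the retinol dehydrogenase RDH5 by 0.93, and SDR16C5, a retinol dehydrogenase not detected on the controls, was at least 1.92-fold higher. CYP26B1, which breaks down retinoic acid, fell by 1.84 ± 0.17 (adjusted p = 8.6e-05), and ALDH1A3, which makes it from retinal, fell by 1.03 ± 0.17 (adjusted p = 0.0016). DHRS4L2 fell by 0.54. In MDA-MB-453 none of the 16 differed by 2-fold, beside 3.06% of all genes. CYP1B1 differed there by 0.60 and CYP26B1 by -0.33, and ALDH1A3 was not detected on either array. CYP26A1, the more widely used retinoic acid target, was not detected often enough to be tested.

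Between the control arrays, CYP1B1 was higher in MDA-MB-453 by 3.25 (limma adjusted p = 3.3e-06), DHRS4 by 1.52 and RDH16, a retinol dehydrogenase not detected in MDA-MB-231, at least 2.64-fold. AKR1C3 was lower there by a difference of -4.37 and CYP26B1 by -3.72, and ALDH1A3 was at least 11.3-fold lower. Like CRABP2 and RXRA, CYP1B1 read lower on the MDA-MB-231 controls than on the arrays labelled knockdown there and on both MDA-MB-453 arrays. This order is not particular to them, and ELF3, HSD17B8, SDR42E1 and DECR2 in the lists below shared it. AKR1C3 in contrast rose in MDA-MB-231 while being low in MDA-MB-453. Of the 16 genes, 7 were higher and 3 lower in MDA-MB-453, beside 26.9% and 26% of all genes.

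Of 12 genes of retinoid binding and uptake, 4 were tested. FABP5, the carrier that takes retinoic acid to PPARD instead of the retinoic acid receptors, fell by 1.04 ± 0.17 in MDA-MB-231 (limma adjusted p = 0.0018), from 10.76 and 10.63 to 9.57 and 9.74, on the arrays where its counterpart CRABP2 was higher. It was not detected in MDA-MB-453, at least 55.2-fold lower than on the MDA-MB-231 controls. Of the other 3, RBP5 was higher in MDA-MB-453 controls by 0.82 (adjusted p = 0.012) and none passed in MDA-MB-231. The median of the 4 was -0.19 in MDA-MB-231 and 0.05 in MDA-MB-453. CRABP1 was not analysed here.

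Among receptors and cofactors, 13 of 18 were tested, of which 2 rose, 3 fell and 8 did not pass in MDA-MB-231 (median 0.07), again beside 19.5% and 19.7% of all genes. RXRB, the second retinoid X receptor, rose by 1.01 ± 0.17 (limma adjusted p = 0.0021), from 8.99 and 9.22 to 10.09 and 10.15, and the acetyltransferase EP300 rose by 0.50. RARB, a receptor and a classical retinoic acid target, fell: it was detected at 5.64 and 5.45 on the controls and on neither array labelled knockdown, at least 1.70-fold lower (adjusted p = 0.0022). The corepressor NRIP1 fell by 0.73 and the deacetylase HDAC3 by 0.69. In MDA-MB-453, where RARB was not detected on either array, 0 of the 13 differed by 2-fold (median -0.01), beside 3.06% of all genes. Between the control arrays 7 were higher in MDA-MB-453 and 4 lower, beside 26.9% and 26% of all genes. Among the higher were EP300 by 2.15, NRIP1 by 1.27 and CREBBP by 1.15. Among the lower were KAT2B by -1.18, HDAC3 by -0.88 and RARB at least 1.55-fold.

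Of 29 genes known to respond to retinoic acid, 16 were tested, with 6 higher, 5 lower and 5 not passing in MDA-MB-231 (median -0.26), where 19.5% of all genes were called higher and 19.7% lower. PLAAT4, first named as retinoic acid receptor responder RARRES3, rose by 3.51 ± 0.18 (limma adjusted p = 3.6e-06), from 5.47 and 5.51 to 9.17 and 8.82. RARRES2, the adipokine chemerin, was not detected on the controls and was at least 4.09-fold higher, the epithelial transcription factor ELF3 rose by 1.80 and the adhesion molecule ICAM1 by 1.72. Against these stood CYP26B1 (-1.84) and RARB, which are also in the lists above, the homeobox gene MEIS2 (-1.06) and NRIP1. The transglutaminase TGM2 had a difference of -0.45 ± 0.16 that did not pass (adjusted p = 0.056).

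In MDA-MB-453, 1 of the 16 retinoic acid-responsive genes differed by 2-fold or more, beside 3.06% of all genes. This was the growth factor-binding protein IGFBP3, which read 7.77 and 11.16, a difference of 3.39. It rose by 0.58 in MDA-MB-231 (limma adjusted p = 0.029). PLAAT4 differed by 0.71 in MDA-MB-453 and RARRES2 was not detected there. Between the control arrays HOXB2, not detected in MDA-MB-231, was at least 18.5-fold higher in MDA-MB-453, ELF3 was higher by 2.69 and RARRES1 at least 2.97-fold. TGM2 was at least 89.99-fold lower in MDA-MB-453, CYP26B1 was lower by a difference of -3.72 and the actin-associated RAI14 by -3.12.

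Of 56 other short-chain dehydrogenases listed, 45 were tested, with 8 higher, 9 lower and 28 not passing in MDA-MB-231 and a median of -0.08. These shares are near the 19.5% of all genes called higher and 19.7% called lower. HSD17B8, which acts on oestradiol and in mitochondrial fatty acid synthesis, was not detected on the controls and was at least 7.55-fold higher (limma adjusted p = 4.7e-06), SDR42E1 rose by 1.13 and DECR2, a peroxisomal dienoyl-CoA reductase, by 1.06. SDR16C5 is in this list too. Sepiapterin reductase, SPR, fell by 1.78, the GDP-fucose enzyme GFUS by 1.35, the sphingolipid enzyme KDSR by 1.29 and DHRS11 by 1.06. In MDA-MB-453, 1 of the 45 differed by 2-fold, beside 3.06% of all genes, and the median was 0.07. This was DHRSX, at least 2.18-fold higher from a control reading that was not detected. Counts at this fold depended on the processing: of the genes in the 5 lists, 2 were 2-fold higher (IGFBP3 and DHRSX), 1 without background correction, with an offset of 50 or among genes detected on all 6 arrays, and 5 under median scaling.

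Between the control arrays 23 of the 45 were higher in MDA-MB-453 and 6 lower (median 0.55), beside 26.9% of all genes called higher and 26% lower. Over the 5 lists 38 genes were higher and 19 lower, against 28 and 22 under median scaling. They included HSD17B8, at least 15.1-fold higher, the xylulose reductase DCXR (2.97) and the ketone body enzyme BDH1 (2.75), and on the lower side HSD17B11 (-4.68), HSDL2 (-2.77) and the carbonyl reductase CBR1, at least 5.10-fold lower.

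**Figure D5:**
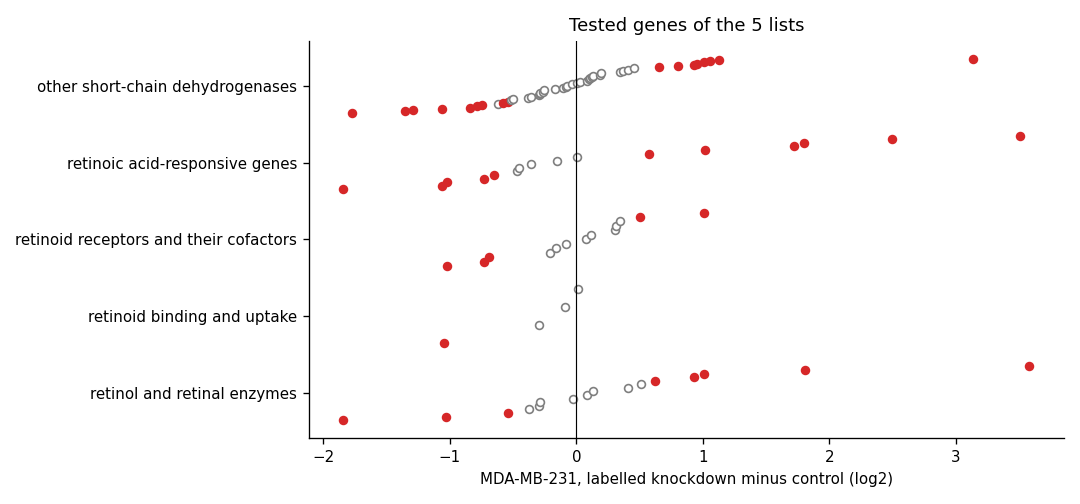
Log2 difference in MDA-MB-231 between labelled knockdown and control arrays (2 against 2) for each tested gene of the 5 lists, members excluded. Filled red points passed an adjusted p below 0.05 and open points did not. A gene in 2 lists is drawn in both, and each list except retinoid binding and uptake has filled points on either side of 0.

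The genes whose pattern over the 6 arrays was nearest to DHRS2 were SCGB2A2, the peptidase MME, albumin (ALB), the steroid receptor-associated SRARP and the potassium channel regulator ABCC8. Likeness was measured as the root mean square difference of log2 values after removing each gene's mean, which was 0.78 for SCGB2A2 and up to 1.09 for ABCC8. These 5 were 2.45 to 3.45 higher on the MDA-MB-453 array labelled knockdown than on its control, less than DHRS2, and differed by -0.09 to 0.11 in MDA-MB-231, against 1.06 for DHRS2.

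The genes nearest to DHRS3 lay closer by the same measure, which is not scaled for how much a gene varies. Correlations over the 6 arrays were alike, at 0.89 to 0.96 for the genes nearest to DHRS2 and 0.93 to 0.98 for these. The testis-enriched heat shock protein HSPA2 was nearest, at a root mean square difference of 0.24, with differences of 1.44 in MDA-MB-231 and 1.99 in MDA-MB-453. The interferon-induced helicase DDX60 (0.28), the extracellular matrix protein FRAS1 (0.29), the stress-induced transcription factor DDIT3 (0.31) and the interferon-induced exonuclease ISG20 (0.32) came next, with differences of 1.19 to 1.93 in MDA-MB-231 and 0.84 to 1.60 in MDA-MB-453. These likenesses rest on 6 arrays in 4 groups and carry no test.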

How the data were processed

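The deposited values are an intensity per probe before normalization, paired with a detection p-value per the file headers, and values the authors had processed, on a log2 scale. The processed values deposited equal the quantile-normalized log2 intensities to within 5.26e-09 and served as an alternative. The program behind the intensities is not given in the sources used here. Intensities were background-corrected with normexp from the detection p-values (offset 16), quantile-normalized and put on the log2 scale with limma 3.58.1 in R 4.3.3. Gene names came from the platform's annotation in GEO, with 1 symbol for 30113 probes of 48107, several for 8 and none for the rest. Probes detected (p below 0.05) on at least 2 of 6 arrays were kept, and the probe with the highest mean stands for a gene. A gene not detected on any array of 1 group has a lower bound as its fold, with that group raised to each array's lowest detected value. A limma fit (lmFit, eBayes, two-sided, Benjamini-Hochberg over 13022 genes) had a mean for each group, with 2 residual degrees of freedom, all from MDA-MB-231. With 2 arrays against 2, an exact permutation of 1 gene cannot go below p = 0.333. The number of arrays limits the precision. The fit was tested on simulated data.

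The 8 genes and the lists were chosen with earlier results of these data known. The genes named were the members with every probe, SETDB1, the fixed marker genes, RARB, CYP26A1, CRABP1, TGM2 and ALDH1A3, and by rule the called genes of largest difference in each list (up to 4 in each direction in MDA-MB-231, 3 in MDA-MB-453 at 2-fold or more and 3 in each direction between lines), the 3 nearest tested genes on each side of DHRS2 and DHRS3, the 5 nearest in pattern and the 3 ranked after DHRS2. Replicate numbers are shared by the MDA-MB-231 groups, but the deviations of same-numbered arrays correlated at 0.07 over genes, so the numbers were not taken as pairs. All arrays carry 1 batch label.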

Additional observations from a re-analysis of the deposited data

How the results depend on the processing

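The differences of DHRS2 and DHRS3 between labelled knockdown and control kept their direction under every setting run, while their sizes depended on how background was treated. The DHRS2 difference in MDA-MB-453, 5.64, was 4.98 without background correction and with the authors' processed values, 4.89 with an offset of 50 and 4.997 as the mean of its probes. The DHRS3 difference was 1.49, 1.49 and 1.46 in MDA-MB-231 under the first 3 of these and 1.63 under median scaling, and in MDA-MB-453 1.59, 1.59, 1.55 and 2.23. Without 1 MDA-MB-231 array in turn it was 1.67 to 1.83. Median scaling moved the median of all genes to 0.26 in MDA-MB-453 and to -0.15 between the lines, and RDH10 in MDA-MB-453 to 0.35. RDH11 in MDA-MB-231, -0.01, was 0.13 as the mean of its probes and -0.11 to 0.10 with 1 array left out. Genes 2-fold or more apart in MDA-MB-453 numbered 399, and 201 without background correction or with processed values, 183 with an offset of 50, 727 under median scaling (681 higher, 46 lower) and 252 if detected on all 6 arrays. Genes called in MDA-MB-231 numbered 5103, and 2893 to 5246 with 1 array left out (3305 without control replicate 1, 2893 without control replicate 2), and 4919 with the replicate number as a block. Where a group is left with 1 array, its spread is taken from the other MDA-MB-231 group. The cause of these changes was not tested. Between the lines, RDH10 was also lost with genes detected on at least 1 array (adjusted p = 0.0515), and DHRS2 passed without MDA-MB-231 control replicate 1 (0.96, adjusted p = 0.0427) and in fits without either array labelled knockdown (0.72, adjusted p = 0.015). DHRS2 in MDA-MB-231 ran from 0.59 (offset of 50) to 1.296 (without control replicate 1). DHRS3 between the lines, -0.06, was 0.02 without control replicate 1 and passed under no setting. DHRS2 is absent from the fit of genes detected on all 6 arrays. Signal near background limits DHRS2 in MDA-MB-231 and RARG throughout.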
